A study of Mus musculus with 2 samples.

Results

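Heat-shock-high cDC1 cells are lung dendritic cells in which the transcripts of 3 heat shock genes, Hspa1a, Hspa1b and Dnajb1, took up an unusually large share of all unique molecular identifiers (UMIs, each standing for 1 captured transcript molecule). The cells were chosen by that share: 116 members lay at or above its 90th percentile among 1158 kept barcodes of the cDC1 library. The library held 2939 barcodes and the whole series 5984. The comparison group was the 579 kept barcodes below the median share. Both libraries were made from lungs of untreated C57BL/6 mice (8 to 10 weeks old) at steady state. Tissue was dissociated with dispase, and flow cytometry separated cDC1, positive for the chemokine receptor XCR1, from cDC2, positive for CD172a, the product of Sirpa. With 1 library per sort and no named animals, no test between groups of cells was possible. Each interval given is a 95% interval for counting error alone, and "higher" or "lower" for a count of genes means past a rule of size.

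Conventional type 1 dendritic cells (cDC1) take up dead cells and present their antigens to CD8 T cells, and they depend on the transcription factors IRF8 and BATF3. The heat shock response is run by HSF1, a transcription factor that is held inactive by chaperones and is released when unfolded proteins occupy them. HSF1 then binds repeats of a short sequence in front of chaperone genes. HSP70 proteins (Hspa1a, Hspa1b) bind unfolded chains, J-domain proteins (Dnajb1) deliver the chains to HSP70 and trigger its ATPase, and exchange factors (Hsph1, Bag3) reset the cycle. Warming, enzymatic dissociation, oxidants and other proteotoxic stress are known to start this response in many cell types.

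The promoters of 4 chaperone genes with high ratios are shown, picked because they hold letters that HSF1 is known to recognise, while the windows of Dnajb1 and Bag3, with high ratios too, hold no match. The motif searched was GAANNTTC or its other phase TTCNNGAA, each of which reads the same on both strands. It occurred in the 150 bases before the start of 7.73% of 32851 RefSeq promoter windows on GRCm38.p6. The windows below are written 5' to 3' in the direction of the gene, end at the base before the RefSeq start, and carry the matches in capitals. They lie at chr17:34972157-34972306 (Hspa1a, minus strand), chr17:34959239-34959388 (Hspa1b, minus strand), chr5:149636337-149636486 (Hsph1, minus strand) and chr5:135887769-135887918 (Hspb1, plus strand).
Hspa1a: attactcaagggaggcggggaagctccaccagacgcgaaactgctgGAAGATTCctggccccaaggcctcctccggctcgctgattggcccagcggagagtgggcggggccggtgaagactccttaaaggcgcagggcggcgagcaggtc
Hspa1b: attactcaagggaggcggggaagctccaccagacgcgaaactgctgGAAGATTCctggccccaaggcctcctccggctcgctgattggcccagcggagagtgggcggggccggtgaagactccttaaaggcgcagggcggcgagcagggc
Hsph1: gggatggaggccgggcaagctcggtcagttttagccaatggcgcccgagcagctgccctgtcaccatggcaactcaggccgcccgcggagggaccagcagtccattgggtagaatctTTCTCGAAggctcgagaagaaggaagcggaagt
Hspb1: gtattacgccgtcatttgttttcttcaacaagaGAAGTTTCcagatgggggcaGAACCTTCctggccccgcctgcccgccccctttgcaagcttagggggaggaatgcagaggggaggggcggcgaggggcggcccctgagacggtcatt
The Hspa1a and Hspa1b windows were identical at 149 of 150 bases, and in both the match began 104 bases before the start. Hspb1 had 2 matches, at 117 and 97 bases before the start. The Hsph1 match, from the first of 2 RefSeq starts, began 33 bases before its start, and a longer match of the form TTCNNGAANNTTC, TTCTGGAAAGTTC, began 36 bases after it. That longer form or its reverse, GAANNTTCNNGAA, was found in 0.603% of the whole 300-base windows. The first Dnaja1 window and that of Jun had 1 match each, at 124 and 128 bases. The windows of Dnajb1, Bag3, Hspa2, Ddit4, Cxcr3 and Snx22 held no match, which says only that these letters are not in that stretch.

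The share that defined the members was not spread evenly over the cells. No UMI of the 3 genes was found in 373 kept barcodes, and a further 435 lay below 0.03% of their UMIs. Only 73 barcodes fell between 0.03% and 0.1%, and 277 (23.9%, exact interval 21.5 to 26.5) lay at 0.1% or more. The members are therefore the upper end of a second hump, which also holds 161 barcodes between 0.1% and the cut at 0.556%. The median share was 0.919% in members, the highest was 2.83%, and the median over all kept barcodes was 0.00938%. The 4 members nearest the cut had shares of 0.563% to 0.580%, and the 4 nearest non-members 0.553% to 0.540%. Within 10% of the cut lay 10 barcodes above it and 16 below. So the cut falls in no gap of the share, and the members are a range of a graded score. Whether the second hump is a separate type or state of cell was not tested.

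**Figure D1:**
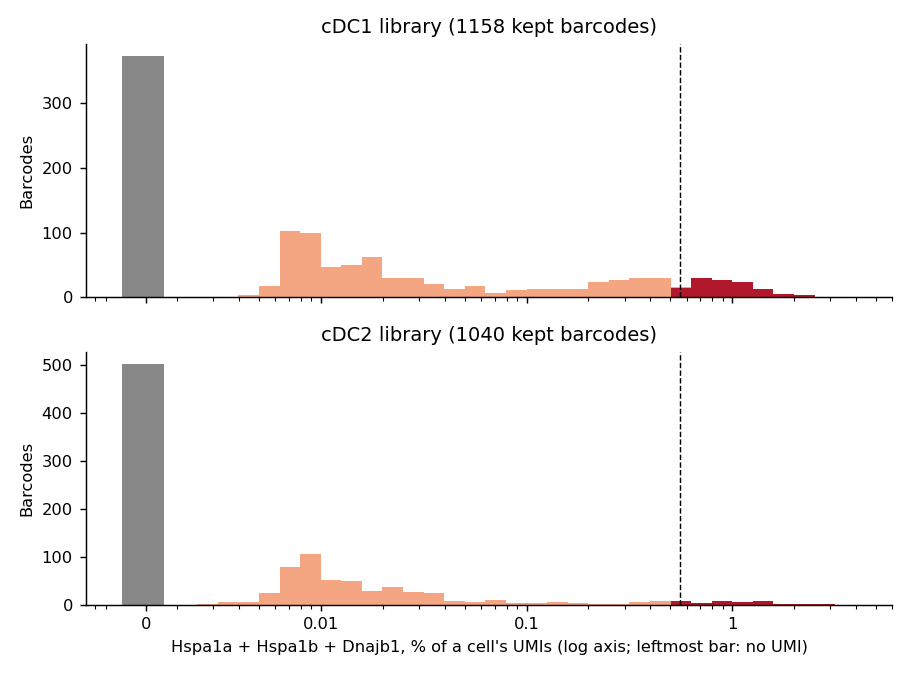
Number of kept barcodes by the percentage of their UMIs from Hspa1a, Hspa1b and Dnajb1 (log axis; leftmost bar, barcodes with no such UMI), in the cDC1 library (top) and the cDC2 library (bottom), with a dashed line at the cDC1 cut of 0.556%. A second hump above 0.1% holds 277 cDC1-library and 71 cDC2-library barcodes.

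Hspa1a and Hspa1b lie near each other on chromosome 17 (34969190 to 34972156 and 34956436 to 34959238, minus strand, GRCm38) and have nearly the same sequence, so reads of one can be counted to the other and the levels of the pair are uncertain to that extent. As a description of what the rule chose, Hspa1a stood at 6232 CPM (UMIs of a gene scaled to a fixed total, over all cells of a group) in members and 10.8 CPM in the comparison group. All 116 members held it, with 10, 67.5 and 205 UMIs in the lowest, median and highest member, while no barcode of the comparison group had more than 1. Hspa1b stood at 2961 and 2.60 CPM, and Dnajb1, found in 108 members, at 756 and 15.2 CPM. Each gene can also be read in cells chosen without it. In the 116 barcodes ranked highest on Hspa1a and Hspa1b alone, 113 of them members, Dnajb1 stood at 723 CPM against 37.9 CPM in the 579 barcodes ranked lowest on that pair, a ratio of 19.1 (16.7 to 21.9). In the 116 ranked highest on Dnajb1 alone, 73 of them members, Hspa1a stood at 4683 CPM and Hspa1b at 2217 CPM. The 624 barcodes that had no Dnajb1 UMI served as the low group here and held 252 and 109 CPM, which gives ratios of 18.6 (17.7 to 19.6) and 20.4 (18.9 to 22.1). With each cell's UMIs divided at random into a set that chose the cells and a set that was read, the Dnajb1 ratio was 22.1 (18.1 to 27.1).

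Depth and general RNA quality were similar in both groups. The members held 1369615 UMIs in all, with a median of 11672 UMIs, 2594 genes, 3.74% mitochondrial and 25.9% ribosomal protein UMIs per cell. The comparison group held 7307584 UMIs, with medians of 12459, 2608, 3.92% and 24.8%. Thinned to 4000 UMIs, the median member had 1324 genes and the median comparison cell 1303. A zero in the members allows up to 2.19 CPM.

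The members carried the cDC1 markers. All 7 of the list (Xcr1, Clec9a, Irf8, Batf3, Cadm1, Wdfy4, Tlr3) were detected, with a summed level of 2929 CPM in members and 2318 CPM below the median, while the rule itself required a UMI of Xcr1 or Clec9a in every cell. Irf8 alone gave 1592 against 972 CPM, so the higher sum is that of this 1 gene. Batf3 and Tlr3, at lower levels, were higher too, and Xcr1, Clec9a, Cadm1 and Wdfy4 stayed within 1.5-fold. The 7 cDC2 markers summed to 41.6 and 62.1 CPM, with Cx3cr1 at 0 in both groups. Of 8 macrophage and monocyte markers, 7 were at 0 in members and the eighth, Ccr2, is described below (summed level 351 against 137 CPM). Of 6 B-cell markers, 5 were at 0 and Ighm alone gave 106.6 CPM in members, where the list summed to 60.6 CPM below the median. The mature dendritic cell list was lower, at 265 against 634 CPM. Ccl22 alone gave 231 against 608 CPM, so the lower sum is that of this 1 gene. Fscn1, the defining gene of the list, was at 0 in members, but the rule had capped Fscn1 and Ccr7 in both groups. The part of other cells' RNA in the results was not tested beyond these levels. Doublets were not removed.

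Across the transcriptome, 4700 genes reached 20 CPM in either group. Of these 560 (11.9%) were higher in members by at least 1.5-fold and 525 (11.2%) were lower, while 3615 stayed within 1.5-fold and the median log2 ratio over all of them was 0.00. The counting interval excluded 1 for 546 and 504 of the called genes. At 2-fold the counts were 213 and 160, and only 13 genes were higher by 5-fold or more. The differences were thus many and mostly small, with a short list of large ones. After the selecting genes, the largest ratios at 50 CPM or more belonged to Hspb1, Hsph1, Bag3, Phlda1, Tagap, Jun, Hsp90aa1, Egr1, Hmox1, Tnf, Lbh and Txnip. The smallest belonged to Jdp2, Txnrd1, Slc15a3, Ccl17, Cd80, Csf2rb, Vps37b, Map3k14, Dusp5, Slc41a1, Tnip3 and Fbxw11. With the cells chosen on Dnajb1 alone, the ratio was 11.8 for Hsph1, 3.38 for Phlda1, 2.39 for Txnip and 0.627 for Slc41a1, and against all barcodes below the 90th percentile it was 9.44 for Hsph1 and 2.52 for Egr1.

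Chaperones that the rule did not use formed the top of the list. Hsph1, the HSP110 exchange factor that reloads HSP70 (chromosome 5, 149614287 to 149636376, minus strand), had 616 CPM in members, 231 CPM in the barcodes between 0.1% and the cut, and 30.8 CPM below the median. Its ratio to the comparison group was 20.01 (17.3 to 23.3). A UMI was found in 108 of 116 members and 151 of 579 comparison cells, and after thinning to 4000 UMIs in 76.5% (67.7 to 83.9) against 10.0% (7.66 to 12.8). Hspb1, the small heat shock protein HSP27 that holds unfolded chains (chromosome 5, 135887919 to 135889563, plus strand), was found in fewer cells. Its level was 195 CPM against 1.92 CPM, a ratio of 102 (59.6 to 189), but only 20 members held it and 1 of them supplied 49 of 267 UMIs. Leaving out the top cell of each group gave a ratio of 89.5, and its value ranged from 30.4 to 177 over the alternatives. Bag3, which links HSP70 to small heat shock proteins and autophagy, was 9.21-fold higher (6.85 to 12.5), and 49 members held it.

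Several other genes of the cytosolic chaperone list were higher by smaller factors. Hsp90aa1, the inducible cytosolic HSP90, stood at 1979 CPM against 393 CPM (5.04-fold, 4.78 to 5.31) with a median of 14 UMIs in members and 4 in the comparison group. Its constitutive partner Hsp90ab1 was 1.59-fold higher (1.53 to 1.66). Dnaja1, another J-domain partner of HSP70, was 3.33-fold higher, and Hspa8, the constitutive HSP70, 1.71-fold (2886 against 1688 CPM), falling to 1.48-fold with members cut at the 80th percentile. The HSP90 co-chaperones Ahsa1, which stimulates its ATPase, and Chordc1 were 2.13-fold and 2.07-fold higher. The polyubiquitin gene Ubb, which supplies ubiquitin under stress, was 1.83-fold higher (3313 against 1807 CPM).

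Of 36 cytosolic chaperone and co-chaperone genes tested, 15 were higher and 2 lower, against 11.9% and 11.2% of all genes, with a median log2 ratio of 0.22 against 0.00. The remaining 19 stayed within 1.5-fold. They included all 7 subunits of the chaperonin TRiC/CCT that were tested (Cct5 ratio 0.992, 0.867 to 1.13) and Hsf1 itself (0.857, 0.549 to 1.29). The 2 lower genes were Dnajb6 (0.571) and Hspa14 (0.438). The list does not cover the selecting genes, but several of its members are known HSF1 targets, so its direction goes with the rule that chose the cells.

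**Figure D2:**
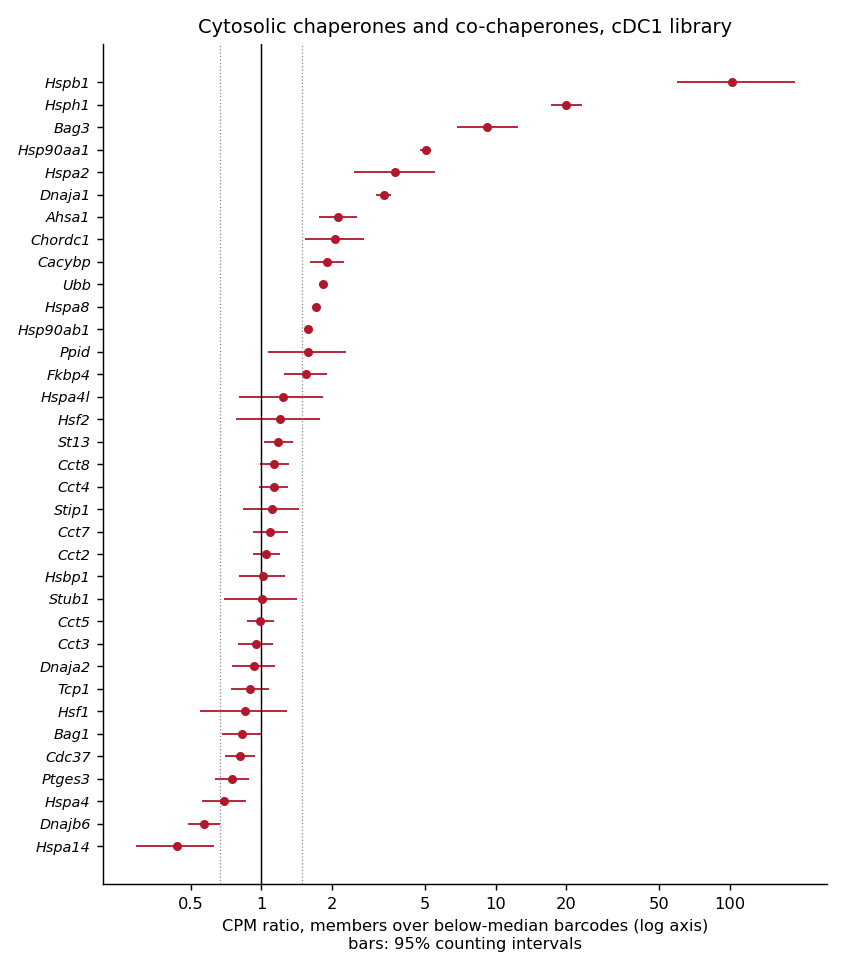
Ratio of CPM in the 116 members over the 579 below-median barcodes (log axis) for 35 of the 36 cytosolic chaperone genes at 20 CPM or more; bars are 95% counting intervals and dotted lines mark 1.5-fold either way. Hspb1 (102), Hsph1 (20.01), Bag3 (9.21) and Hsp90aa1 (5.04) stand to the right, and the Cct genes sit at 1.

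The chaperones of other compartments split. Over all genes, 11.9% were higher and 11.2% lower. In mitochondria, Hspd1 and Hspe1, the HSP60 chaperonin and its lid, which share a promoter region, were 3.29-fold (2.90 to 3.74) and 1.99-fold (1.83 to 2.15) higher. The mitochondrial HSP70 gene Hspa9 was lower (0.604), but not with members cut at the 80th percentile, with split UMIs or after thinning. In the endoplasmic reticulum, 1 gene of 20 was higher (Dnajb9, 1.58-fold, with 20.3% of its member UMIs in 1 cell). Lower were 4: Hyou1 (0.496), Edem1 (0.579), Dnajc3 (0.592) and Creld2 (0.598). Edem1 and Creld2 were not called after thinning. The median log2 ratio of that list was -0.33, and Hspa5, its main HSP70, stood at 932 against 1017 CPM. Of 30 proteasome genes, 28 stayed within 1.5-fold. Of 14 integrated stress response genes, 6 were below 20 CPM in both groups, and of the 8 tested 5 were higher and 0 lower. Atf4 stayed within 1.5-fold (1.13, 0.956 to 1.33). Ddit4, an inhibitor of mTORC1, had 40.9 against 2.74 CPM (14.9-fold, 8.83 to 26.3, in 24 members), or 7.39-fold in the lowest alternative. Gadd45a, Gadd45g and Ppp1r15a, which directs the phosphatase that restores translation, were 3.12-fold, 2.94-fold and 1.99-fold higher. Ddit3 was 1.87-fold higher. Among members, 21 held Ddit3 and 34 held Gadd45g, and the top cell gave 25.6% and 21.3% of their UMIs.

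Immediate early genes, which respond within minutes to many stimuli and to dissociation, were partly higher. Of 27 tested, 13 passed 1.5-fold upwards and 3 downwards, against 11.9% and 11.2% of all genes. The median log2 ratio was 0.57. Jun, a subunit of AP-1, stood at 1553 CPM in members, 983 CPM in the middle barcodes and 295 CPM below the median (5.27-fold, 4.96 to 5.60). Its median count was 13.5 UMIs in members and 2 in the comparison group. Egr1 was 4.53-fold (3.90 to 5.26), Atf3 2.78-fold and Klf2 2.90-fold higher. Fos, the partner of Jun, was 1.83-fold higher, and Btg2, an antiproliferative gene, 2.24-fold. The 3 lower genes were Dusp5 (0.298), Nr4a3 (0.440) and Nr4a2 (0.558), a count near the share of lower calls over all genes.

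Genes outside the chaperone and immediate early lists also differed. Phlda1, a pleckstrin-domain gene, was 5.48-fold higher (695 against 127 CPM). Tagap, a GTPase-activating protein gene of leukocytes, was 5.41-fold higher, and Txnip, which binds thioredoxin and restrains glucose uptake, 3.65-fold. Hmox1, the haem-degrading enzyme, had 63.5 against 16.4 CPM, but only 25 members held it and 1 gave 21 of 87 UMIs. The cytokine Tnf was likewise found in 26 members, 26 of its 92 UMIs in 1 cell, and its ratio of 3.81 became 1.84 after thinning. Ccl3 was 3.53-fold higher with 22 of 41 UMIs in 1 cell, and leaving out the top cells gave 2.03. Hmox1, Tnf and Ccl3 are thus high in a few members and not in most.

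Within cDC1 identity, 6 of 23 genes were higher and 1 lower, against 11.9% and 11.2% of all genes. Cxcr3, the receptor for CXCL9 and CXCL10 (chromosome X, 101731535 to 101734269, minus strand), was given with Snx22 as a marker of these cells. Both are among the 6 higher genes, so that count was partly fixed beforehand. Cxcr3 stood at 47.5 CPM against 15.5 CPM (3.07-fold, 2.23 to 4.20) and Snx22, a sorting nexin, at 46.0 against 13.4 CPM (3.43-fold, 2.46 to 4.75). Both are thin signals: 38 members held Cxcr3, with at most 6 UMIs, and 43 held Snx22. After thinning, 11.3% (6.16 to 18.6) of members and 4.74% (3.14 to 6.82) of comparison cells held Cxcr3, and 23 of 115 members (13.1% to 28.5%) and 4.21% (2.72 to 6.20) of comparison cells held Snx22. Chosen on Dnajb1 alone, the cells gave ratios of 1.85 and 1.76. In the kept cDC2-library cells below that library's median, 2 of 520 held Cxcr3 and 1 held Snx22, which is the level in cells sorted on another marker at a median of 11511 UMIs.

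Irf8 and Batf3, the transcription factors of the lineage, were 1.64-fold higher each. Irf8 stood at 1592 CPM in members, 1449 CPM in the middle barcodes and 972 CPM below the median, with 18 and 10 UMIs in the median member and comparison cell, and the ranges of single cells overlapped almost wholly. Its ratio was 1.44 in cells chosen on Dnajb1 alone. Tlr3, the sensor of double-stranded RNA, was 2.28-fold (1.89 to 2.75) and Gcsam 1.92-fold higher. Xcr1, on which the cells were sorted, and Clec9a, the receptor for dead-cell actin, stayed within 1.5-fold (0.874 and 1.003). Cd207, which encodes langerin, was the 1 lower gene (136 against 376 CPM, 0.362). Of 9 G protein-coupled receptors tested, Ccr2, the given marker Cxcr3, P2ry14 and Cxcr4 were higher and Gpr132 lower, against 11.9% and 11.2% of all genes. Ccr2, the receptor that brings cells in from blood, stood at 351 against 133 CPM (2.63-fold, 2.35 to 2.94), and 95 members held it. Ciita, the master regulator of MHC class II transcription, was 2.41-fold higher, while 10 of 12 class II genes stayed within 1.5-fold and Cd74 stood at 20666 against 24652 CPM.

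Several maturation genes were lower and none was higher. Of 11 maturation and migration genes tested, 0 were higher and 5 lower, against 11.9% and 11.2% of all genes. The other 6 were within 1.5-fold, and the median log2 ratio was -0.51. The rule had already removed barcodes with 3 or more Fscn1 or 2 or more Ccr7 or Il12b UMIs. Ccl17, a chemokine for CCR4-bearing T cells, stood at 253 CPM in members, 428 CPM in the middle barcodes and 1148 CPM below the median (0.220, 0.197 to 0.245). Cd80 and Cd86, the ligands of CD28, had ratios of 0.239 and 0.543, and Ccl22 had 0.380. Csf2rb, the beta chain shared by the receptors for GM-CSF, IL-3 and IL-5, stood at 126, 254 and 522 CPM in the same order (0.242, 0.206 to 0.282), with a median of 1 UMI in members and 5 in the comparison group. Reads of its close copy Csf2rb2 could be divided between the pair. After thinning, 29.6% (21.4 to 38.8) of members and 73.2% (69.3 to 76.8) of comparison cells held Csf2rb.

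Jdp2, a repressor of AP-1, had 62.8 against 327 CPM (0.192, 0.153 to 0.239), and 33 of 116 members held it against 447 of 579 comparison cells. Of 21 genes of NF-kB, cytokines and chemokines, 8 were lower, 5 higher and 8 within 1.5-fold. Over all genes, 11.2% were lower and 11.9% higher. The lower ones included Nfkb1 (0.531), Nfkb2 (0.397), Rela (0.609) and Il1b (0.470). Map3k14, the kinase that starts the noncanonical pathway, had a ratio of 0.285, and the A20-binding gene Tnip3 0.299. The 5 higher genes were Tnf, Ccl3, Ccl4, Ccl2 and the inhibitor gene Nfkbia. Nfkbia (1.59) lost its call in 4 of 13 alternatives. Ccl4 was 3.21-fold higher (2.72 to 3.78), found in 38 members with 21.8% of its UMIs in 1 cell. The survival genes Bcl2a1b and Bcl2a1d, near copies of each other whose reads can be split, had 0.323 and 0.366, and the death-promoting Bbc3 was 2.82-fold higher. Txnrd1 and Nfe2l2, thioredoxin reductase and the regulator of the antioxidant response, had 0.215 and 0.472. Of 16 glycolysis genes, 5 were lower, with the lactate exporter Slc16a3 at 0.272 and Pgam1 at 0.460.

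**Figure D3:**
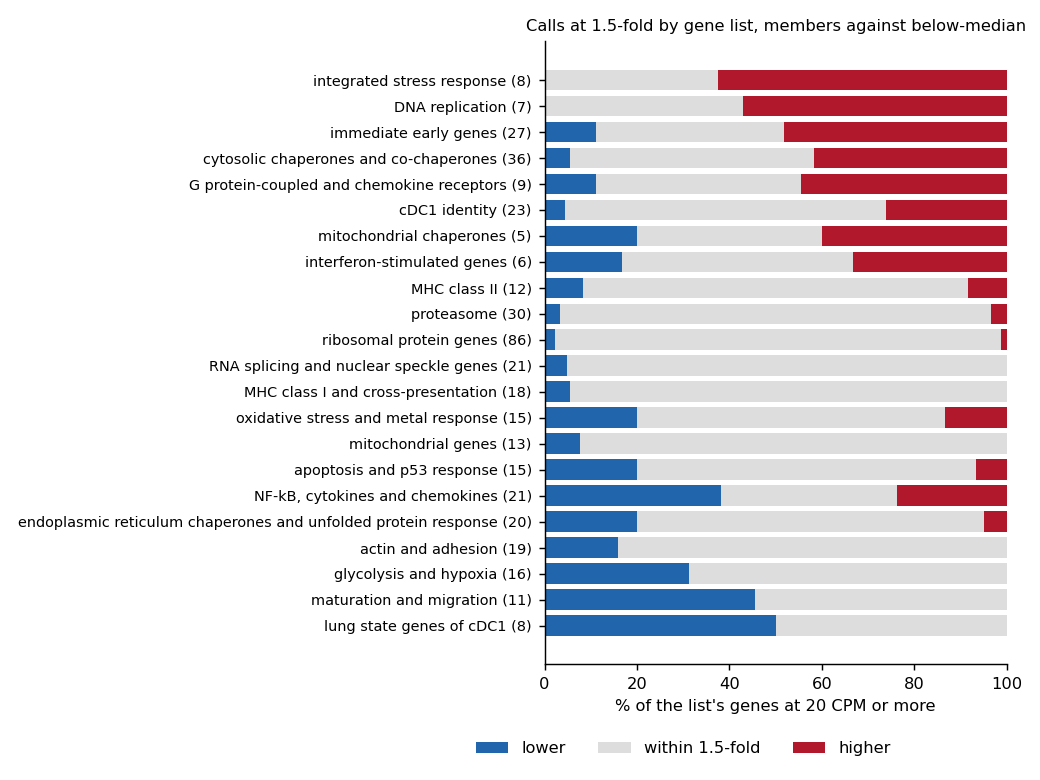
Percentage of each gene list's tested members (number in brackets) that were higher, within 1.5-fold or lower in the 116 members against the 579 below-median barcodes; lists of 5 or more tested genes are shown. Integrated stress response, immediate early and cytosolic chaperone genes hold more higher than lower calls, and maturation, glycolysis, lung state and endoplasmic reticulum chaperone genes more lower ones, against 11.9% higher and 11.2% lower over all genes.

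In several other lists most genes stayed within 1.5-fold. The shares over all genes, for the counts below, were 11.9% higher and 11.2% lower. Of 86 genes whose symbol starts with Rpl or Rps and a number, 83 did so, and the 1 higher gene, Rps6ka1, is a kinase and no ribosome subunit. Of 21 splicing and speckle genes, 20 stayed within 1.5-fold, as did 17 of 18 class I presentation genes, 12 of 13 mitochondrially encoded genes and 16 of 19 actin and adhesion genes. Of 6 interferon-stimulated genes, Mx1 (2.93-fold, in 24 members) and Irf9 (2.57-fold) were higher and Stat2 (0.666) lower, a call that 7 of 13 alternatives lost. Of 15 oxidative stress genes, 2 were higher and 3 lower, and of 15 apoptosis genes, 1 and 3. Of 7 DNA replication genes, 4 were higher, led by Mcm5 (2.77-fold, 28 UMIs in 10 members), which fell to 1.11 in cells chosen on Dnajb1 alone. The other called genes lost their calls in 9 (Mcm6), 4 (Mcm3) and 3 (Dut) of 13 alternatives. Of 15 mitosis genes only Mki67 was tested, since the rule removes cycling cells.

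The 161 barcodes between 0.1% and the cut separated the differences into those already present below the cut and those that went on growing. Against the below-median group, 447 of 4679 genes (9.55%) were higher in these middle barcodes and 228 (4.87%) lower. Against the middle barcodes, 183 of 4779 genes (3.83%) were higher in members and 285 (5.96%) lower. Of the chaperone list, 7 of 34 genes were higher in the middle barcodes, and 10 of 35 were higher again in members over the middle. Hspb1 was 8.94-fold, Hsph1 2.67-fold, Hsp90aa1 2.56-fold and Bag3 2.47-fold above the middle level. Hmox1 was 6.74-fold above it but belongs to neither kind. Its middle level of 9.42 CPM lay under the 16.4 CPM of the below-median group. Of the cDC1 identity list, 5 of 23 were higher in the middle barcodes and 0 of 23 in members over the middle. The given markers Cxcr3 and Snx22 are among those 5. Egr1 (0.962), Ciita (0.959), Tlr3 (0.891), Ccr2 (1.06) and Cxcr3 (1.28) stood in members close to their middle level. Marcksl1 (1.04) did so among the lower genes, while Csf2rb (0.497), Txnrd1 (0.491) and Jdp2 (0.532) were lower again.

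Deciles of the kept barcodes, ranked by the share, show where along the score each level changed. The first 3 deciles hold no UMI of the 3 genes and have no order among themselves. The 3 genes together stood at 214 CPM in the seventh decile, 1008 in the eighth, 3688 in the ninth and 9985 in the last. Hsph1 followed in step, at 35.7, 121, 247 and 621 CPM. Hspb1 stayed at 4.34 CPM in the eighth decile and reached 27.4 and 197 CPM in the last pair. Csf2rb stood at 425 and 476 CPM in the seventh and eighth deciles and at 178 and 127 CPM in the ninth and last. Ccl17 changed at the same place, from 837 to 280 and 255 CPM. Over the 10 deciles and 2394 genes, the genes whose levels followed the share most closely by rank were Gpi1 (Spearman 0.94), Coq10b (0.93), Parp8 (0.93), Rsrp1 (0.91), Prkcd (0.91) and Fos (0.91). Their ratios were 1.12 to 2.04, so a close order over the deciles did not mean a large difference.

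**Figure D4:**
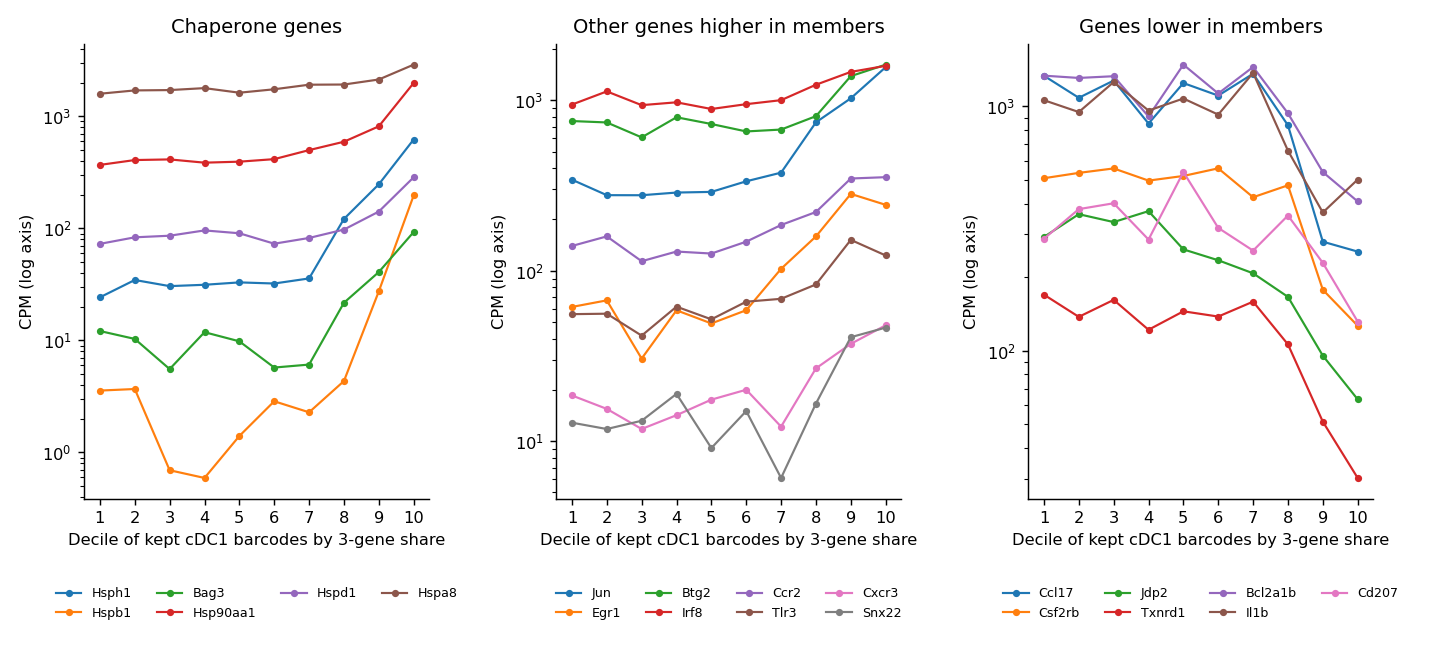
CPM (log axis) in deciles of the 1158 kept cDC1 barcodes, ranked from the lowest to the highest share of Hspa1a, Hspa1b and Dnajb1; each point sums 115 or 116 barcodes and the last decile is the members' range. Chaperones climb to the last decile, Irf8, Ccr2 and Egr1 change little between the last 2 deciles, and Ccl17 and Csf2rb drop between the eighth and ninth.

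Members differed among themselves. Over the 116 cells, Hspa1a and Hspa1b levels were correlated by rank (Spearman 0.52), and so were Hsph1 and Hsp90aa1 (0.45) and Hsp90aa1 and Dnaja1 (0.42). Hspb1 was correlated with none of the chaperones above 0.20, its highest being 0.19 with Hspa1b. Jun and Hspa1a gave 0.21, Jun and Fos 0.11, and Hspa1a and Ccl17 -0.09. These values describe 116 cells of 1 library that share its depth range, and sparse counts lower them.

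**Figure D5:**
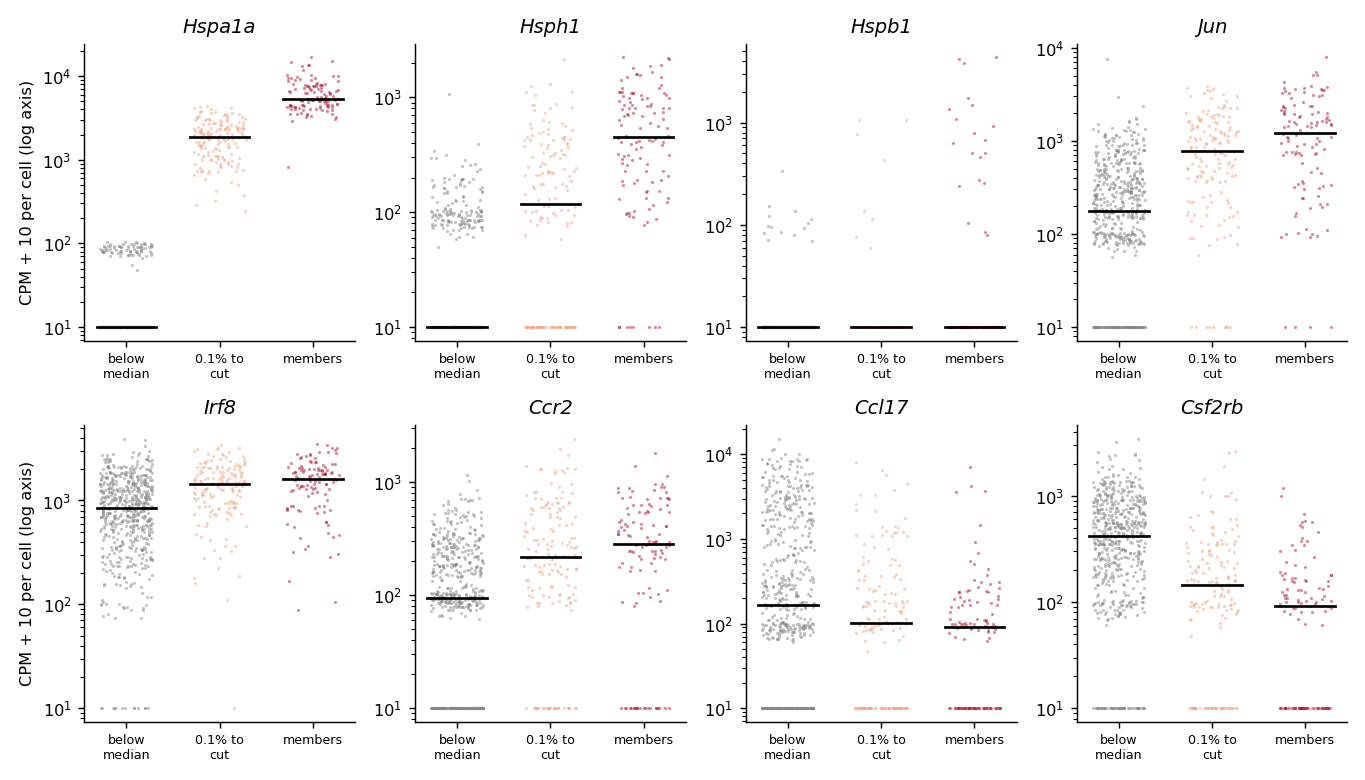
CPM per cell plus 10 (log axis) for 8 genes in the 579 below-median barcodes, the 161 barcodes between 0.1% and the cut, and the 116 members; each point is a cell and the black line the median. Hsph1 and Jun shift in most members, Hspb1 is seen in 20 of 116, and Irf8, Ccr2, Ccl17 and Csf2rb overlap widely between groups.

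Low Ccl17 went with membership. Of the members, 104 of 116 (89.7%) held at most 3 Ccl17 UMIs, against 344 of 579 comparison cells (59.4%). Members made up 13.8% (11.5 to 16.5) of the Ccl17-low barcodes and 2.95% (1.53 to 5.09) of those above. Within barcodes of at most 3 Ccl17 UMIs, a comparison chosen after seeing the data, Hsph1 was 20.5-fold, Jun 4.97-fold, Ccr2 2.78-fold and Irf8 1.60-fold higher, and Csf2rb had a ratio of 0.224 and Jdp2 0.181. For these genes the values are close to those of all kept cells. The Ccl22 ratio moved from 0.380 to 0.636 and that of Tnip3 from 0.299 to 0.569. Other named genes moved too, among them Hmox1 from 3.87 to 6.60, Nfkbia from 1.59 to 2.21 and Bcl2l1 from 0.578 to 0.838.

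The same share was then read in the cDC2 library, which the rule did not use. Of 1040 cDC2-library barcodes kept by the same filters, with Sirpa or Mgl2 in place of Xcr1 or Clec9a, 71 (6.83%, 5.37 to 8.53) lay at 0.1% or more and 38 (3.65%) at or above the cDC1 cut. The cDC1 library had 23.9% and 10.0%, the latter fixed by the rule. Sort and library cannot be told apart here. That library's own 90th percentile lay at 0.0368%, below the second hump, so its top decile mixes cells with and without strong heat shock signal. Of 5348 genes, 1237 (23.1%) were higher in that decile and 381 (7.12%) lower, with a median log2 ratio of 0.20. Of the genes called in the cDC1 library, 280 of the 560 higher ones (22.6% of the cDC2 list) and 167 of the lower ones (31.8% and 43.8%) were called the same way there, and 9 were called in opposite directions.

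The 38 cDC2-library barcodes above the cDC1 cut, set against the 520 below that library's median, are the closer counterpart. Markers of other cells moved with this group: the 8 macrophage and monocyte markers, Ccr2 among them, summed to 1714 against 402 CPM, with Ms4a7 and Fcgr1 at 0 in the 38 cells. The 7 alveolar macrophage markers summed to 987 against 570 CPM, with Marco, Krt79 and Atp6v0d2 at 0, and the 6 B-cell markers, all detected, to 236 against 85.6 CPM, while the cDC2 markers summed to 2562 against 3425 CPM. Their part in the ratios that follow was not tested. The 38 barcodes hold 529764 UMIs, and 1535 of 5431 genes (28.3%) were higher and 652 (12%) lower. Of the chaperone list, 14 of 36 were higher and 2 lower. Hsph1 was 53.3-fold higher (732 CPM), Bag3 10.9-fold, Hsp90aa1 5.25-fold and Dnaja1 3.64-fold. Hspb1 had 121 CPM in 8 of 38 cells, again a few cells. Phlda1 was 12.6-fold, Jun 5.02-fold, Egr1 5.77-fold, Ccr2 4.18-fold and Ciita 2.13-fold higher. Csf2rb (0.371), Jdp2 (0.202), Txnrd1 (0.186), Ccl17 (0.353), Bcl2a1b (0.330) and Cd80 (0.180, on 14 UMIs) were lower. Some differences did not recur in size: Tagap was 1.79-fold and Ddit4 1.62-fold higher, on 40 and 14 UMIs. Cxcr3 and Snx22 were at 2 and 0 UMIs in these cells. Irf8 and Tlr3 were higher in these cells too. Irf8 was 4.89-fold higher (130 CPM, 69 UMIs), in 10 of 38 cells with up to 42 UMIs in 1. Tlr3 was 8.51-fold higher, on 14 UMIs in 7 cells. No difference between the libraries was tested.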

How the data were processed

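The values the authors deposited are raw UMI counts, with genes in rows and barcodes in columns of 1 matrix for each library. Per the labels' protocols they come from the 10x Chromium v3.1 kit. The submitters' processing notes name Cell Ranger 3.2, mm10 and Seurat (with no role), while per the file headers the software version is 3.0.2. For the annotation release and the number of mice: not given in the sources used here. Barcodes were kept with at least 500 genes, 1000 UMIs and at most 10% mitochondrial UMIs, Xcr1 and Clec9a together at 1 or more, Fscn1 below 3, Ccr7, Il12b and Plet1 each below 2 and 6 cycle genes together below 4 UMIs. UMIs were summed per group and scaled to CPM, with exact Poisson, conditional binomial and Clopper-Pearson intervals at 95%. Genes were tested at 20 CPM or more and called at 1.5-fold, and a count under 3 was set to a floor of 3. The 3 selecting genes stayed out of counts. Genes named were the 12 largest and 12 smallest ratios at 50 CPM, up to 4 by ratio and 2 by level per list, and 6 by rank correlation over deciles; predicted, mitochondrial, ribosomal, histone and antigen receptor genes were left out of the first group. Further list members, named as examples, were chosen after their values were seen. The members and the gene lists were chosen with earlier results of these data known. Python 3.11.15, numpy 2.4.6, scipy 1.17.1 and pandas 2.3.3 were used. The calling was tested on simulated Poisson counts per group. These hold no variation between cells, so they do not probe genes found in a few cells. The libraries share 6 barcode sequences, 2 of them kept and 0 among members. Doublets were not removed. Coordinates are from GENCODE vM21, and promoters from RefSeq on GRCm38.p6. 1 tested chaperone-list gene is counted but not reported here by name.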

Additional observations from a re-analysis of the deposited data

Results flagged for a closer look

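Cells outside the chosen population also reached the share that defines the members. Of cDC1-library barcodes removed for a mitochondrial share over 10%, 16.9% lay at or above the cut, with a median of 2875 UMIs, against 10.0% of kept barcodes. Of barcodes with 3 or more Fscn1 UMIs (mature cells), 7.14% did so, and of those with 4 or more cycle UMIs, 7.39%. Of barcodes left out for Ccr7, Il12b or Plet1, 3.47%, 2.89% and 1.78% reached it. These barcodes enter none of the comparisons above, and the classes overlap.

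Plac8 had a ratio of 0.0942 in the cDC1 members (6 UMIs in 3 cells), between 0.0479 and 0.452 over 13 alternatives. It had 1.52 in the top decile of the cDC2 library but 0.970 (65 UMIs) in the 38 barcodes above the cDC1 cut there. The difference between the libraries was not tested.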

How the results depend on the processing

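All 87 of the 123 named genes called at 1.5-fold kept their direction under each of 13 alternatives, with the exception of Ccl17, whose ratio was 1.15 within barcodes of at most 3 Ccl17 UMIs, a limit that itself removes its high cells. Of the 87, 61 kept the call under all 13 and 30 moved by more than 1.5 times under at least 1. Against 560 genes higher and 525 lower (51.6% of calls higher), leaving selecting, mitochondrial and ribosomal genes out of the CPM total gave 977 higher (64.7% of calls), a floor of 10 CPM 1164 (62.4%), a floor of 50 CPM 171 and 305 lower (35.9%), and a 2-fold call 213 and 160. Leaving out the top cell of each gene gave 411 higher and 666 lower (38.2%). The median log2 ratio of the chaperone list, 0.22, was 0.32 with the 95th percentile, 0.14 against all barcodes below the 90th percentile, 0.18 with split UMIs, 0.13 after thinning, 0.18 at 10 or 50 CPM, 0.19 within Ccl17-low barcodes and 0.15 without top cells. The last 2 alternatives were added after seeing the data. At the cDC1 cut, 38 cDC2-library barcodes remained of 104. Counts set these limits: a gene at 20 CPM rests on few UMIs in the members. No paired analysis was possible because there is 1 library per sort.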
